A study of Mus musculus with 72 samples.

Results

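Heme is made in 8 enzymatic steps, and the genes described here are Alas1, Alad, Uros, Urod, Cpox, Ppox and Fech, which encode enzymes of 7 of those steps, and Hmox1, which encodes the enzyme that opens the heme ring. The members were taken by symbol: the Ensembl identifiers of the count table were matched to GENCODE mouse M21, and 8 of 8 members were found among 51912 genes. All 8 passed the filter on low counts, which left 12712 genes. The study sequenced mRNA 3′ ends from the livers of wild-type male C57BL/6J mice, housed in 12 h of light and 12 h of dark, with a starting age of 43-49 days. The 72 libraries came from 4 feeding paradigms: ad libitum, night-restricted, arrhythmic, and an arrhythmic one whose animals are described as not fully adapted (here, incompletely adapted arrhythmic). Each paradigm was sampled at zeitgeber times ZT02, ZT06, ZT10, ZT14, ZT18 and ZT22 (hours after lights on) with 3 libraries per time. By its title the study weighed rhythmic feeding and the liver clock as drivers of rhythmic transcripts, and the comparisons below ask how these genes ran over the day in each paradigm. The timing of food and the criterion for adaptation are not given in the labels.

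Heme, an iron-bearing porphyrin ring, is the cofactor of cytochromes P450, catalase and the mitochondrial respiratory chain, and the liver is a main site of its synthesis outside the bone marrow. ALAS1, the housekeeping aminolevulinate synthase, joins glycine and succinyl-CoA in mitochondria and sets the rate of hepatic synthesis; its expression is induced in fasting and is repressed by heme itself. ALAD and the porphyrin-building enzymes UROS and UROD act in the cytosol, and CPOX, PPOX and FECH finish the ring and insert iron in or at mitochondria. HMOX1, the inducible heme oxygenase, cleaves heme to biliverdin, carbon monoxide and iron, and is a textbook target of oxidative stress and of heme.

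Libraries held 4342026 to 12286021 reads assigned to genes (median 6992793). Levels are given as CPM, the counts scaled to a fixed library total, which carry no term for gene length, so levels are not compared between genes. Positions are given in GRCm38. Alas1 spans chr9:106233455-106248654, Alad chr4:62509169-62519918, Uros chr7:133686243-133710072, Urod chr4:116989965-116994413 and Ppox chr1:171275990-171281186, all on the minus strand. Cpox spans chr16:58670292-58717636 and Hmox1 chr8:75093621-75100589, both on the plus strand. The lowest count of a member in any library was 22 for Alas1, 778 for Alad, 5 for Uros, 259 for Urod, 143 for Cpox, 15 for Ppox, 325 for Fech and 43 for Hmox1, so the values of Uros and Ppox are the least precise. The libraries also differed in how their values leaned towards GC-rich transcript 3′ ends, here called the GC slope (log2 per 10 percentage points of GC). It was highest, at 0.319 to 0.496, in the replicate 1 libraries of night-restricted feeding at ZT02, ZT06, ZT18 and ZT22, and lowest, at -0.377, in incompletely adapted arrhythmic replicate 1 at ZT10. These are the 5 libraries called extreme below, and all but the last are night-restricted. Incompletely adapted arrhythmic replicate 1 at ZT14 (-0.323) and replicate 2 at ZT22 (-0.306) lay about as far from 0 as the 0.319 library and were kept. In a fit that included it, 75.9% of all genes tested changed with the GC slope, and so did 7 of the 8 members (all but Uros). Alas1 changed by -4.00 ± 0.45 (SE) and Cpox by -2.85 ± 0.16 on the log2 scale per unit of slope, and the other 5 by 0.99 to 1.64. At their own 3′ ends Alas1 had 52.7% GC and Cpox 33.3%, while the other 5 ran from 40.7% (Hmox1) and 43% (Fech) to 55.7% (Alad). The signs thus did not follow the members' GC content throughout. The slope was computed from the same counts, and what it stands for was not tested. Values after adjustment for GC slope or without those 5 libraries are given beside each call of a member that this ended or created, and beside each daily range of a member that the adjustment moved by more than 1.5 times. The genes of the related lists further below are given without this adjustment.

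RefSeq promoter sequences (GRCm38.p6), taken as the 250 bases before an annotated start, were matched for 6 of the 8 members, with 9 starts in all. They were searched on both strands for 8 short motifs. The shares given in this paragraph are of 32851 mouse promoters of the same length. The E-box CACGTG, the element that the clock proteins CLOCK and BMAL1 bind, was held by 6.02% of promoters. The D-box core TTANGTAA was held by 2.06%, the nuclear receptor half-site AGGTCA by 14%, the forkhead core TGTTTAC by 3.17%, the cAMP response element TGACGTCA by 1.55%, the CAAT box CCAAT by 33.8% and the TATA box TATAAA by 12.4%. The site of NRF1, nuclear respiratory factor 1, which is GCGCA and GCGC with 1 base of any kind between them, was held by 3.74%. No overlap of these motifs with each other occurred in the printed sequences. The window before the inner start of Alas1 held 2 NRF1 matches, and the 20 bases around each are shown because Alas1 carries the main daily change described below. They lie at chr9:106247940-106247959 and chr9:106247911-106247930, are written on the minus strand 5′ to 3′, and have the match in capitals.
Alas1 NRF1 match, distal: ggcgcGCGCGTGCGCgcggc
Alas1 NRF1 match, proximal: ccaagGCGCATGCGCggcgg
For comparison, the 250 bases before the starts of Cpox (chr16:58669958-58670207, plus strand), Ppox (chr1:171281187-171281436, minus strand) and Urod (chr4:116994414-116994663, minus strand) are shown, with every motif match in capitals. Cpox and Ppox passed the test for a daily rhythm in at least 1 paradigm and Urod in none.
Cpox: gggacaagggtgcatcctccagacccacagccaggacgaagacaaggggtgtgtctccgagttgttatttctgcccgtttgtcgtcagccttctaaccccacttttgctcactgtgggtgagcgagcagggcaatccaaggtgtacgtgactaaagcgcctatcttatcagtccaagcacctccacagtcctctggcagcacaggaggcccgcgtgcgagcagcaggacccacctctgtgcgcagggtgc
Ppox: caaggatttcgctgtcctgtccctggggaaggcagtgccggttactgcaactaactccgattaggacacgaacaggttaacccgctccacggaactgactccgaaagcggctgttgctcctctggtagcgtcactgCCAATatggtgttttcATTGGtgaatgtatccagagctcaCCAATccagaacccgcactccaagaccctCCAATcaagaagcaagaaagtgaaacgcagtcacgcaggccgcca
Urod: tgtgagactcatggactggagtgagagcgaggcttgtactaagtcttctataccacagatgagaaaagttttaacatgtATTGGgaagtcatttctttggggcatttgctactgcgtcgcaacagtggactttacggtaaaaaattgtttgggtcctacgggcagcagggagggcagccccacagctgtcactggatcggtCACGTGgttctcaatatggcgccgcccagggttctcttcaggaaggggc
The Cpox window held 0 of the 8 motifs. The Ppox window held 4 CAAT boxes in either orientation, and the Urod window held an E-box 49 to 44 bases before its start and a CAAT box. E-box letters were also present in both windows of Alad and 1 of Uros, and in neither window of Alas1. The same Uros window held an NRF1 match 47 to 38 bases before its start, and Uros passed for a rhythm in no paradigm. A match here describes the letters only.

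Alas1 had a daily course in which paradigms differed most. Under night-restricted feeding its mean rose from 6.06 CPM at ZT02 to 173 at ZT14, and the fitted peak-to-trough range was 4.67 ± 0.58 (SE) on the log2 scale, or 25.5-fold, with the peak at ZT 13.6 ± 0.5 h. Under ad libitum feeding the range was 3 ± 0.56 (7.99-fold), peaking at ZT 14.1 ± 0.7 h, and under incompletely adapted arrhythmic feeding 2.36 ± 0.56 (5.12-fold), peaking at ZT 10.7 ± 0.9 h. Under arrhythmic feeding the fitted range was 0.95 ± 0.56 (1.94-fold). A fitted range cannot fall below 0, so noise alone gives a positive range. The adjusted p for a 24 h rhythm was 8.42e-08, 0.000612 and 0.00549 in the first 3 and 0.653 under arrhythmic feeding (edgeR quasi-likelihood F test, Benjamini-Hochberg over all genes).

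The single libraries show the same course. Under night-restricted feeding the 3 libraries at ZT02 held 3.54, 6.21 and 8.42 CPM, and those at ZT06 held 11.1, 16.3 and 11.7. At ZT10 they held 98.1, 90.9 and 203, and at ZT14 76.8, 161 and 280. Every library at ZT10 and ZT14 was thus above every library at ZT02 and ZT06. At ZT18 the values were 8.56, 64.2 and 84.6, and at ZT22 6.79, 17.2 and 37.5, so these late-night groups spread widely. The lowest value at both times was in replicate 1, whose libraries at these times are among the 5 of extreme GC slope. Without those 5 libraries the night-restricted range was 4.53, and with adjustment for GC slope it was 3.80, both past the test (adjusted p = 7.45e-06 and 5.25e-10, edgeR).

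Under ad libitum feeding Alas1 stood at 15.9, 4.89 and 14.9 CPM at ZT02 and at 182, 141 and 131 at ZT14. The ZT14 libraries were above every other library of this paradigm. At ZT06 the values were 14, 18.8 and 55.4, at ZT10 59.8, 34.1 and 101, at ZT18 94.3, 45.9 and 21.6, and at ZT22 48.7, 12.6 and 50.6. Under incompletely adapted arrhythmic feeding the highest group was ZT10, with 275, 194 and 111, followed by ZT14 with 150, 125 and 95.1. The lowest was ZT18, with 22.3, 13.7 and 6.9. The groups at ZT14 and ZT18 did not overlap. At ZT02 the values were 36, 24.9 and 34.9, at ZT06 45, 76.8 and 37.1, and at ZT22 46.1, 93.4 and 10.5. Under this paradigm the ZT10 library of extreme GC slope held the highest value (275 CPM); without the 5 libraries the range was 2.09 and still passed (adjusted p = 0.0263, edgeR). In a fit of this paradigm's libraries alone the range was 2.38 and did not pass (adjusted p = 0.0516).

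Under arrhythmic feeding the groups of Alas1 overlapped over most of the day. The libraries held 57.8, 16.5 and 58.1 CPM at ZT02, 114, 55.8 and 28.5 at ZT06, and 78.9, 35.3 and 75.7 at ZT10. They held 24.8, 17.4 and 37.1 at ZT14, 10.7, 51.4 and 30.4 at ZT18, and 59.8, 52.2 and 46.8 at ZT22. The lowest group mean, 26.4 CPM, was at ZT14, the time of the highest mean under night-restricted and ad libitum feeding.

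**Figure D1:**
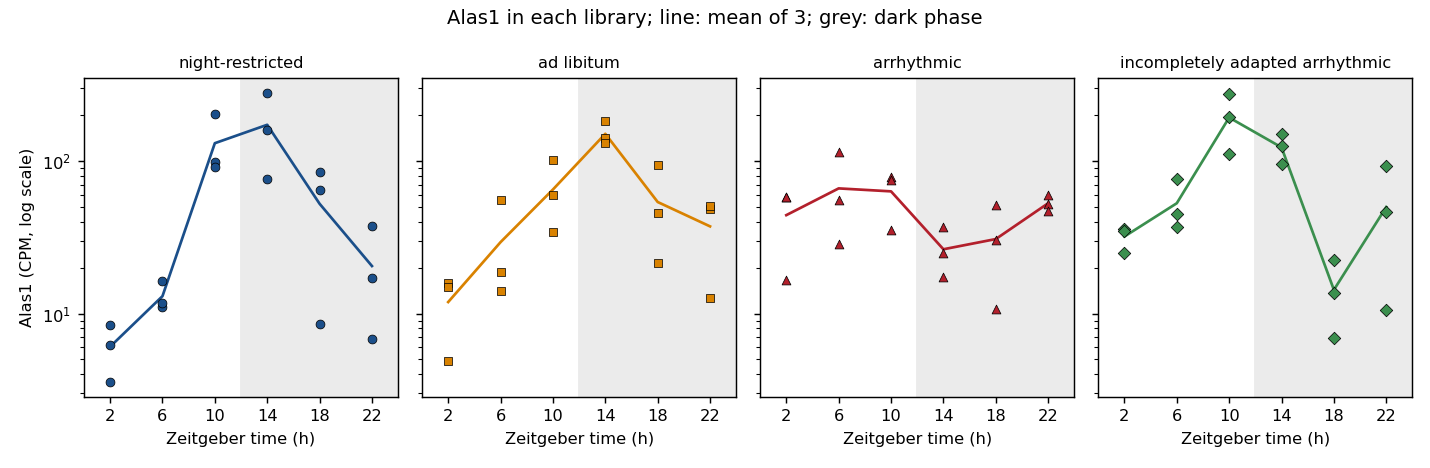
Alas1 level in CPM (log scale) against zeitgeber time in hours, 1 panel per paradigm; points are single libraries, the line joins means of 3 and grey marks the dark phase. Night-restricted means run from 6.06 CPM at ZT02 to 173 at ZT14, while arrhythmic means stay between 26.4 and 66.2.

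The difference in the Alas1 rhythm was tested for all 6 pairs of paradigms, by asking whether both rhythm coefficients were equal. It passed for arrhythmic against night-restricted feeding: the range differed by -3.72 ± 0.80 (SE), and the difference between the 2 fitted curves itself ran over 5.23 on the log2 scale from its peak to its trough (adjusted p = 0.000688, edgeR). It did not pass for incompletely adapted arrhythmic against night-restricted (range difference -2.32 ± 0.80 SE, adjusted p = 0.086) or for arrhythmic against ad libitum feeding (-2.04 ± 0.79, adjusted p = 0.114). After adjustment for GC slope these last 2 passed (adjusted p = 0.0229 and 0.0364), as they did with DESeq2 (0.0357 and 0.025). The adjusted p was 0.65 for ad libitum against night-restricted, 0.54 for incompletely adapted arrhythmic against ad libitum and 0.942 for incompletely adapted arrhythmic against arrhythmic feeding. The comparisons that name the same paradigm share its libraries. Alas1 was the only 1 of 8 members to pass for arrhythmic against night-restricted feeding, where 3.89% of all genes passed, and no member passed for the other pairs, where 0.614% (incompletely adapted arrhythmic against night-restricted), 0% (ad libitum against night-restricted), 0.0236% (arrhythmic against ad libitum), 0% (incompletely adapted arrhythmic against ad libitum) and 0% (against arrhythmic) of genes did.

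At single times the largest gaps in Alas1 lay on both sides of the night-restricted curve. At ZT02 arrhythmic libraries averaged 44.2 CPM and night-restricted ones 6.06, a log2 difference of 2.69 ± 0.65 (SE), and no library of one group reached the other. At ZT06 the means were 66.2 and 13, a difference of 2.16 ± 0.63. At ZT14 the direction was opposite, 26.4 against 173 CPM and -2.58 ± 0.61, again with no overlap. The adjusted p-values were 0.207, 0.0872 and 0.14 (edgeR, fit of 24 group means), so none of these passed over all genes, although the ZT14 contrast did after adjustment for GC slope (adjusted p = 0.0125). Incompletely adapted arrhythmic libraries stood at 32 CPM at ZT02, 52.9 at ZT06 and 14.3 at ZT18 against 6.06, 13 and 52.5 under night-restricted feeding (adjusted p = 0.0761, 0.248 and 0.975). Over all 8 members and 6 times, 0 of 48 contrasts passed in each of the 3 comparisons with night-restricted feeding, and 8, 8 and 1 had an unadjusted p under 0.05 for the arrhythmic, incompletely adapted arrhythmic and ad libitum paradigms. Over all genes, 0.097%, 0.11% and 0.00524% of such contrasts passed after adjustment. The matching shares for an unadjusted p under 0.05 were not computed, so the counts of 8, 8 and 1 have no background beside them.

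Averaged over the day, Alas1 did not pass for a level difference between any pair of paradigms. The mean was 47.3 ± 25.9 CPM (SD, n = 18) under arrhythmic, 77.6 ± 72 under incompletely adapted arrhythmic, 58.1 ± 51.4 under ad libitum and 65.9 ± 78.6 under night-restricted feeding. On the log2 scale of the fit, arrhythmic was 0.26 above night-restricted feeding (95% interval -0.31 to 0.83), the opposite direction to the means in CPM. The largest fitted difference, 0.69 (0.13 to 1.25), was for incompletely adapted arrhythmic against night-restricted feeding, with an adjusted p of 0.0731 (edgeR).

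Among the other enzymes of synthesis, Cpox and Ppox had a daily rhythm in some paradigms. Counting Alas1, 2 of 8 members were rhythmic under night-restricted feeding (Alas1 and Cpox; 29.9% of all genes), 2 under ad libitum (Alas1 and Ppox; 7.48%), 2 under incompletely adapted arrhythmic (Alas1 and Ppox; 3.63%) and 0 under arrhythmic feeding (3.37%; Fech and Hmox1 had unadjusted p-values of 0.0237 and 0.0309, and with DESeq2 the count was also 0). The share under night-restricted feeding is near the background. The median range of the 8 members was 0.51 under night-restricted feeding (0.70 over all genes), 0.51 under arrhythmic (0.43), 0.37 under incompletely adapted arrhythmic (0.42) and 0.50 under ad libitum feeding (0.52). The members' median was thus below that of all genes in 3 paradigms and above it under arrhythmic feeding.

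Cpox encodes coproporphyrinogen oxidase of the mitochondrial intermembrane space. Under night-restricted feeding its libraries held 37, 95.5 and 119 CPM at ZT02, 33.6, 120 and 75.1 at ZT06, and 93.7, 104 and 167 at ZT10. At ZT14 they held 125, 165 and 197, at ZT18 66.4, 257 and 199, and at ZT22 27, 162 and 183. Replicate 1 was the lowest library at every time, and its values at ZT02, ZT06 and ZT22 were the 3 lowest of all 72. The fitted range was 1.19 ± 0.33 (SE; 2.29-fold) with a peak at ZT 16.3 ± 1.1 h (adjusted p = 0.016, edgeR). After adjustment for GC slope the range was smaller, 0.52, and still passed (adjusted p = 0.0103). The call was lost without night-restricted replicate 1 at ZT02, replicate 1 at ZT06 or replicate 2 at ZT18 (adjusted p = 0.0517, 0.0545 and 0.0699). In the other paradigms the Cpox range was 0.57 (ad libitum), 0.56 (arrhythmic) and 0.29 (incompletely adapted arrhythmic), with adjusted p of 0.467, 0.662 and 0.897. After adjustment for GC slope these ranges were 0.14, 0.17 and 0.14. The difference between the arrhythmic and night-restricted curves of Cpox ran over 1.68 on the log2 scale (adjusted p = 0.0645, edgeR). It was 0.65 after adjustment for GC slope (adjusted p = 0.128), and 1.72 with DESeq2, which called it (0.0375).

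Ppox encodes protoporphyrinogen oxidase, the penultimate enzyme. Under ad libitum feeding its libraries held 8.77, 8.48 and 6.34 CPM at ZT06 and 3, 3.9 and 5.82 at ZT14, and the groups did not overlap. The other times held 6.59, 7.52 and 5.49 (ZT02), 7.43, 6.19 and 5.09 (ZT10), 2.87, 4.53 and 5.37 (ZT18) and 5.72, 5.16 and 6.2 (ZT22). The fitted range was 0.92 ± 0.24 (1.90-fold), with a peak at ZT 5.0 ± 1.0 h (adjusted p = 0.0245, edgeR). Under incompletely adapted arrhythmic feeding the ZT06 libraries held 8.23, 6.2 and 8.8 and the ZT14 libraries 2.34, 5.22 and 3.26. The range there was 0.93 ± 0.25, with a peak at ZT 3.8 ± 1.0 h (adjusted p = 0.0469). Both calls rest on single libraries: the first was lost without any 1 of 5 ad libitum libraries (replicate 1 or 2 at ZT06 or ZT14, or replicate 1 at ZT18), and the second without any 1 of 9 incompletely adapted arrhythmic libraries (replicate 1 at ZT06, ZT10, ZT14 or ZT18, replicate 2 at ZT02 or ZT18, or replicate 3 at ZT02, ZT06 or ZT14; adjusted p up to 0.0959 and 0.143). Under night-restricted and arrhythmic feeding the range was 0.64 and 0.37 (adjusted p = 0.106 and 0.701; the first was 0.39 after adjustment for GC slope), and no rhythm difference between paradigms passed. The Ppox peak fell in the light phase, while that of Alas1 fell near lights off; their order was not tested.

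Alad, Uros, Urod and Fech passed in no paradigm. Alad encodes aminolevulinate dehydratase, and its 18 libraries ran from 145 to 272 CPM (median 186) under ad libitum, 154 to 299 (192) under night-restricted, 124 to 240 (178) under incompletely adapted arrhythmic and 128 to 225 (189) under arrhythmic feeding, with ranges of 0.04 to 0.45 log2. Urod encodes uroporphyrinogen decarboxylase and ran from 50.5 to 76.3 CPM (median 59.5), 49.5 to 73.2 (58.2), 40.1 to 69 (55.8) and 45.1 to 65.1 (57.1) in the same order, with ranges of 0.15 to 0.36. These 2 genes stayed within a narrow band in every paradigm. Uros encodes uroporphyrinogen III synthase, and with 5 to 36 counts per library its values of 1.05 to 4.23 CPM leave its ranges of 0.28 to 0.45 uncertain (SE 0.29 to 0.31). Fech (chr18:64452914-64490251, minus strand) encodes ferrochelatase, which inserts iron into protoporphyrin. In the same order it ran from 53.7 to 95.9 CPM (median 65.5), 46.9 to 96.5 (62.7), 48.9 to 86.6 (67.7) and 57.7 to 90.8 (65.7). Its widest fitted range, 0.57 ± 0.20, was under arrhythmic feeding (adjusted p = 0.257, edgeR). Adjustment for GC slope moved several of these ranges by more than 1.5 times and created no call. For Alad the range went from 0.32 to 0.17 under night-restricted, from 0.42 to 0.25 under ad libitum feeding, and in the incompletely adapted form of arrhythmic feeding it went from 0.04 to 0.33. For Urod it went from 0.36 to 0.06 under night-restricted, from 0.32 to 0.19 under arrhythmic feeding, and in the incompletely adapted form it went from 0.19 to 0.09. For Fech the range in that form went from 0.11 to 0.37.

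**Figure D2:**
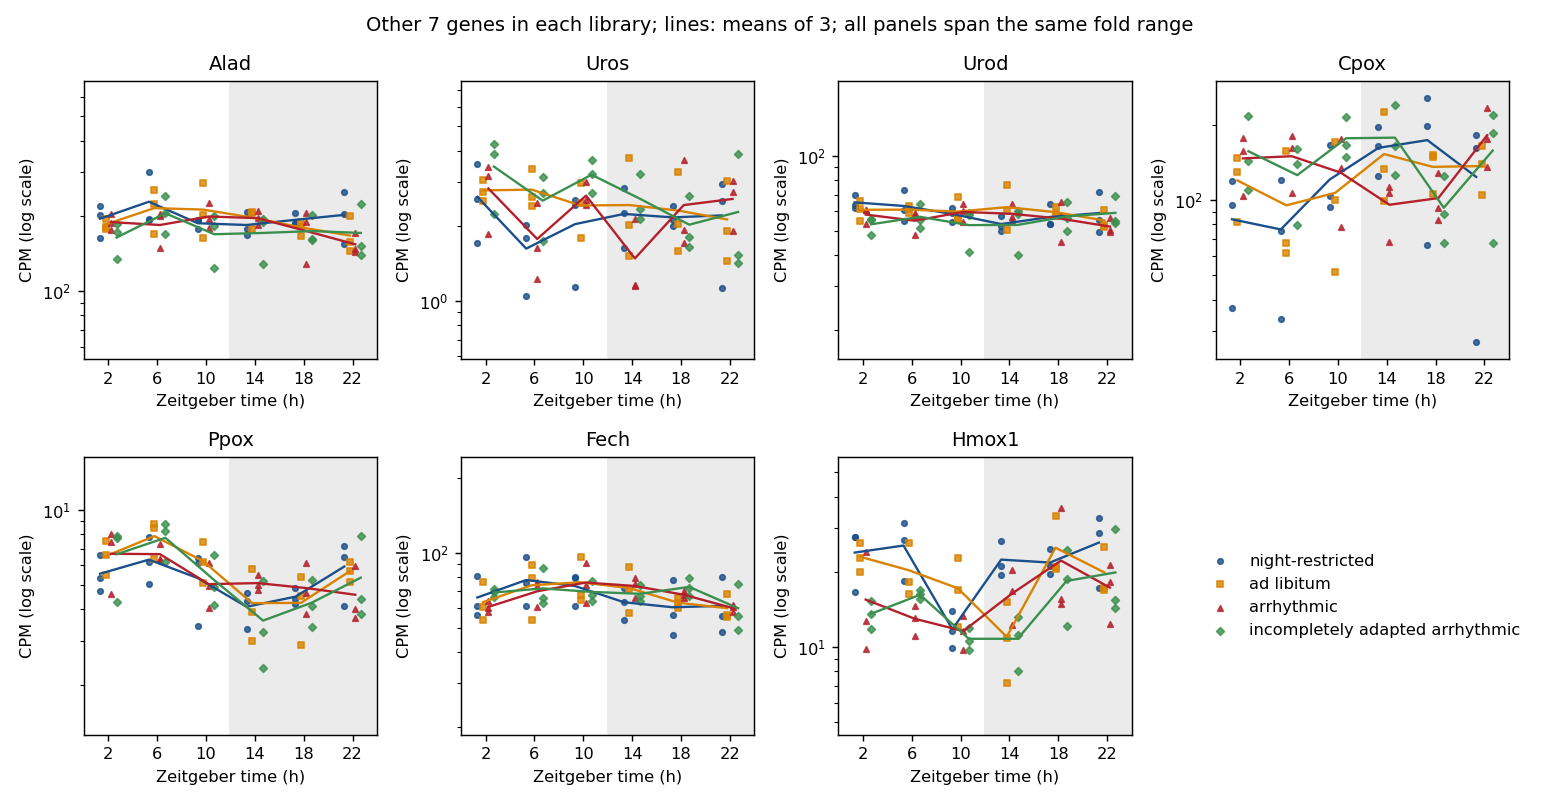
Level in CPM (log scale, every panel spanning the same fold range) of the other 7 members against zeitgeber time in hours; points are single libraries, lines join means of 3, colours and shapes mark the paradigm and grey the dark phase. Alad, Urod and Fech stay within narrow bands, and the 3 lowest Cpox points (27, 33.6 and 37 CPM) are night-restricted replicate 1 libraries.

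**Figure D3:**
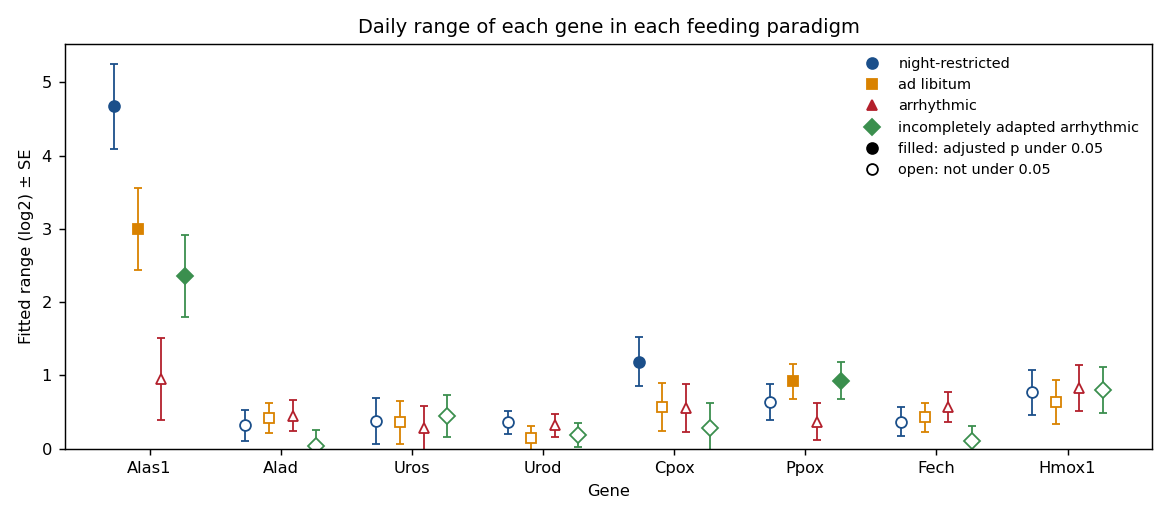
Fitted peak-to-trough range (log2) with its SE for each gene and paradigm; filled symbols passed an adjusted p of 0.05. Alas1 runs from 4.67 under night-restricted to 0.95 under arrhythmic feeding, and the other members lie at or below 1.19, without adjustment for GC slope.

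Averaged over the day, Hmox1 was called lower under both forms of arrhythmic feeding than under night-restricted feeding. Its 18 libraries held 9.75 to 36 CPM (median 14) under arrhythmic feeding, 8.04 to 29.8 (13.9) in its incompletely adapted form, 9.9 to 33 (21.2) under night-restricted and 7.16 to 33.5 (19.2) under ad libitum feeding. The 4 sets of libraries overlapped, and the highest single value, 36 CPM, was an arrhythmic library at ZT18. The mean was 16 ± 6.38 CPM (SD, n = 18) and 14.9 ± 5.25 in the first 2 and 22 ± 6.68 and 19.4 ± 6.31 in the last 2. The log2 difference from night-restricted feeding was -0.54 for arrhythmic (95% interval -0.85 to -0.24, adjusted p = 0.0248, edgeR) and -0.66 for incompletely adapted arrhythmic feeding (-0.97 to -0.35, adjusted p = 0.00317). Of all genes, 5.16% and 11.2% were called lower in these comparisons, which share the night-restricted libraries, and Hmox1 was the only 1 of 8 members. Against ad libitum feeding the differences were -0.31 (adjusted p = 0.359) and -0.42 (0.191), that of ad libitum from night-restricted feeding was -0.24 (0.433), and that between the 2 arrhythmic paradigms was -0.12 (0.981). At single times the arrhythmic and night-restricted Hmox1 means were close at ZT10 (11.6 and 11.8 CPM) and ZT18 (22.2 and 21.8). They lay furthest apart at ZT06 (13 and 25.5), and no single time passed.

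Neither Hmox1 call held without the 5 libraries of extreme GC slope, which all but the incompletely adapted arrhythmic library belong to night-restricted feeding. The differences were then -0.40 (adjusted p = 0.258, edgeR) and -0.50 (0.12). Adjustment for GC slope gave -0.42 (0.0643) and -0.48 (0.0397). The first call was also lost without night-restricted replicate 1 at ZT06 (adjusted p = 0.0588). Without replicate 1 in all groups the differences were -0.33 (adjusted p = 0.458) and -0.53 (0.203). In liver as a bulk sample, fewer cells of a type and less RNA per cell cannot be told apart. Hmox1 is also expressed in Kupffer cells, the liver macrophages that clear aged red cells. Of 12 Kupffer and macrophage markers tested, only Cd163, the hemoglobin scavenger receptor, was called lower in these comparisons (-0.47 and -0.51, adjusted p = 0.0424 and 0.0139), but 10 and 9 of the 12 had a difference below 0, with medians of -0.31 and -0.22. Of 10 endothelial markers 8 and 7 were below 0, with medians of -0.13 and -0.20, and Eng, a co-receptor of TGF-beta chosen after its values were seen, was called lower in both (-0.74 and -0.85, adjusted p = 0.0219 and 0.00435). The only other endothelial calls were in the incompletely adapted comparison and went both ways. Stab1 was lower there (-0.43, adjusted p = 0.0418, edgeR) and Cdh5 higher (0.42, adjusted p = 0.0452). Hepatocyte markers were below 0 in 2 and 5 of 10 (medians 0.04 and -0.03), with 0 and 2 called lower. Erythroid markers were below 0 in 2 and 5 of 5 (0.22 and -0.24), with 0 and 1 called lower. Stellate cell and fibroblast markers were below 0 in 4 and 3 of 10 (0.04 in both). The median over all genes was 0 and 0.02, and the share of genes below 0 was not computed. The summed level of the 12 Kupffer and macrophage markers ranged from 512 to 2630 CPM (median 1090) under ad libitum and 785 to 2520 (1020) under night-restricted feeding. It ranged from 426 to 1790 (959) under incompletely adapted arrhythmic and 655 to 1350 (1050) under arrhythmic feeding. The part of these cell types in the Hmox1 difference was not tested. Over the day Hmox1 passed for no rhythm: its range was 0.77 under night-restricted (adjusted p = 0.131), 0.83 under arrhythmic (0.295), 0.80 under incompletely adapted arrhythmic (0.34) and 0.64 under ad libitum feeding (0.364). Its night-restricted libraries at ZT10 were low, at 9.9, 14 and 11.6 CPM, below every other library of that paradigm.

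**Figure D4:**
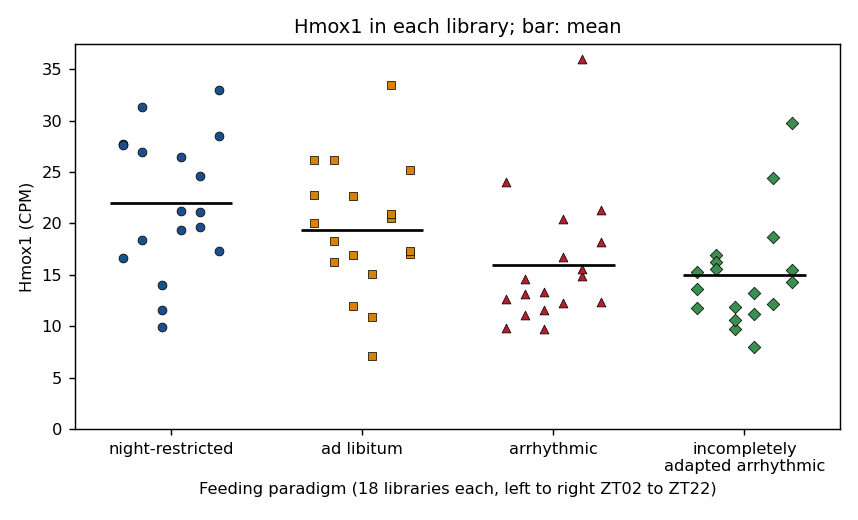
Hmox1 level in CPM for the 18 libraries of each paradigm, placed left to right by zeitgeber time, with the mean as a bar. The means step from 22 and 19.4 CPM under night-restricted and ad libitum feeding to 16 and 14.9 under the arrhythmic paradigms, with overlapping libraries.

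No other mean level of a member passed in any pair, so 1 of 8 members was called in the 2 comparisons above and 0 of 8 in the others, where 1.62% of genes passed in either direction for ad libitum against night-restricted, 2.1% for arrhythmic against ad libitum, 0.134% for incompletely adapted arrhythmic against ad libitum and 0% for incompletely adapted arrhythmic against arrhythmic feeding. For incompletely adapted arrhythmic against night-restricted feeding, Alad was at -0.27 (95% interval -0.48 to -0.06, adjusted p = 0.0579, edgeR) and Urod at -0.19 (-0.36 to -0.03, adjusted p = 0.0809). For Fech the interval was narrow: arrhythmic minus night-restricted was -0.06 (-0.27 to 0.14).

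**Figure D5:**
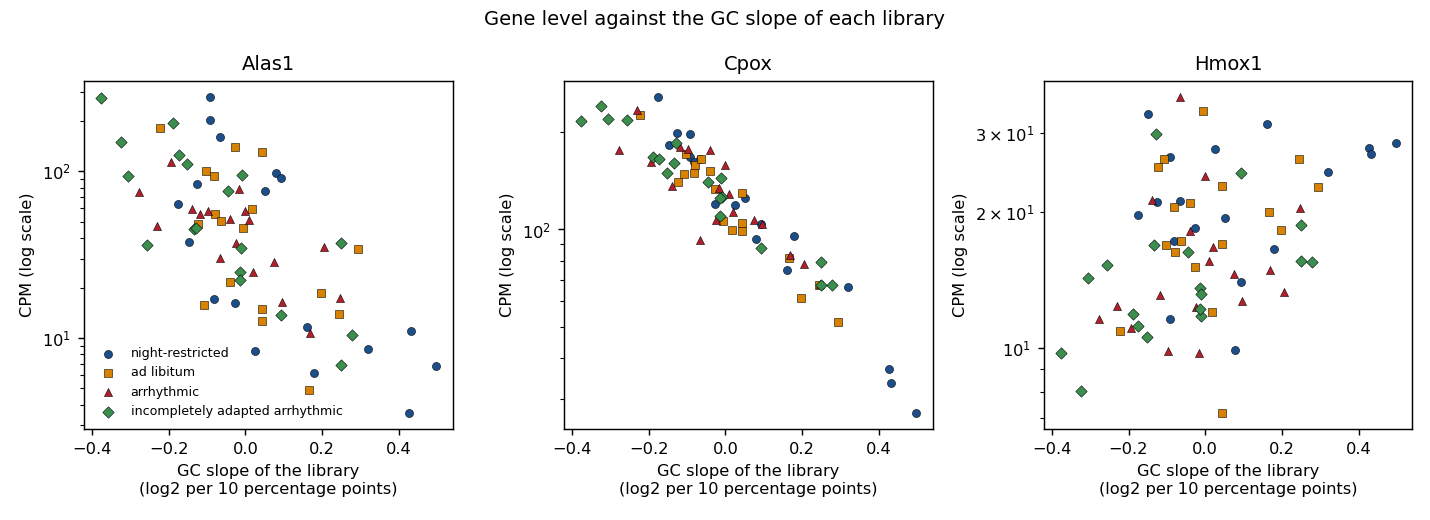
Level in CPM (log scale) of Alas1, Cpox and Hmox1 against the GC slope of each of the 72 libraries (log2 per 10 percentage points of GC content), coloured by paradigm. Cpox falls along a narrow band as the slope increases, with the 3 lowest points (27, 33.6 and 37 CPM) at the right; Alas1 falls with a wider scatter, and Hmox1 leans upward with a wide scatter.

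The members did not share one course. Over the 24 group means of log2(CPM + 0.5), Pearson's r with Alas1 was 0.721 for Cpox, 0.16 for Uros, 0.113 for Fech, -0.225 for Alad, -0.375 for Ppox, -0.529 for Urod and -0.684 for Hmox1. Alad and Urod had r = 0.727, and Cpox and Urod -0.732. All points share their libraries and so the GC slope, on which Alas1 and Cpox had negative and Alad, Urod and Hmox1 positive coefficients, so these values are a description only. By the same measure the genes most like Alas1, among 6460 other genes with at least 10 CPM, were Map2k3 (r = 0.937), Sec23a (0.927), Fdx1 (0.922), Efhd2 (0.921) and Stim2 (0.92), where the median over all genes was 0.147 and the 99th percentile 0.854. Fdx1 encodes adrenodoxin, a mitochondrial electron carrier, and Sec23a a coat protein of vesicles leaving the endoplasmic reticulum. Their own ranges were smaller, 1.09 to 1.44 under night-restricted and 0.17 to 0.62 under arrhythmic feeding. The nearest genes to Cpox were Qk, Ddx50 and Hsp90b1 (0.959, 0.954 and 0.951), to Ppox Krt18, Eif3d and Lonp2 (0.857, 0.831 and 0.826), to Alad Mrpl37, Tbrg4 and Aptx (0.879, 0.845 and 0.833) and to Urod Prodh2, Eef2 and Bckdha (0.877, 0.865 and 0.843). For Fech they were Slc25a47, Nr1d2 and Foxo3 (0.854, 0.828 and 0.824), for Hmox1 Nacc1, Tubg1 and Rps13-ps1 (0.908, 0.905 and 0.904) and for Uros Aox1, Aagab and Plekha5 (0.66, 0.632 and 0.617).

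Among 16 tested partners of heme synthesis (mitochondrial carriers, iron-sulfur cluster genes and ALAS-processing proteases), 4 passed for a rhythm under night-restricted, 3 under arrhythmic, 1 under incompletely adapted arrhythmic and 2 under ad libitum feeding. Of all genes, 29.9%, 3.37%, 3.63% and 7.48% passed in this order. The median range of the partners was 0.53, 0.39, 0.31 and 0.47, beside 0.70, 0.43, 0.42 and 0.52 over all genes. Slc25a38, the mitochondrial glycine carrier of heme synthesis, had a range of 1.06 ± 0.21 under night-restricted feeding (peak ZT 15.7, adjusted p = 0.000476, edgeR) and 0.19 ± 0.21 under arrhythmic feeding (adjusted p = 0.873), but its rhythm difference did not pass (adjusted p = 0.125). Clpx, the unfoldase that activates and degrades ALAS enzymes, was chosen after its values were seen, as was Glrx5. Clpx was the partner rhythmic in all 4 paradigms, with ranges of 2.47, 2.54, 2.23 and 2.25 and peaks at ZT 22.8, 22.4, 22.3 and 23.6 in the same order. Glrx5 and Fdxr also passed under night-restricted feeding, Fdxr under ad libitum and Tmem14c under arrhythmic feeding. No partner passed for a rhythm difference between arrhythmic and night-restricted feeding. Alas2, the erythroid aminolevulinate synthase, was present at 240 CPM on average and passed for no rhythm (adjusted p = 0.15, 0.667, 0.924 and 0.375, in the same order, edgeR). In mean level, 0 of the 16 partners were called lower for arrhythmic against night-restricted feeding, beside 5.16% of all genes. For incompletely adapted arrhythmic against night-restricted feeding 2 were, beside 11.2%, and 0 were called higher in either comparison.

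Among 13 tested genes of heme breakdown and transport, 2 passed for a rhythm under night-restricted (Hpx and Blvra), 0 under arrhythmic, 1 under incompletely adapted arrhythmic (Cd163) and 1 under ad libitum feeding (Abcc2, an exporter of conjugated bilirubin, chosen after its values were seen), beside 29.9%, 3.37%, 3.63% and 7.48% of all genes. The median range of the list was 0.64, 0.42, 0.35 and 0.56 in the same order. Hpx encodes hemopexin, which binds free heme in plasma, and had a range of 0.97 ± 0.23 under night-restricted feeding (adjusted p = 0.00355, edgeR). Hp, encoding haptoglobin, was the only gene of this list to pass for a rhythm difference between arrhythmic and night-restricted feeding (adjusted p = 0.0441), with peaks at ZT 14.1 and ZT 0.9 and ranges of 0.85 and 0.86, neither of which passed for a rhythm by itself (adjusted p = 0.278 and 0.0841). Blvra, one of the biliverdin reductases, had a lower mean level (-0.30 on the log2 scale) under incompletely adapted arrhythmic than under night-restricted feeding (adjusted p = 0.0112). In that comparison 3 of the 13 genes were called lower and 0 higher, and 11.2% of all genes were called lower. The other reductase, Blvrb, chosen after its values were seen, was at -0.04 (adjusted p = 0.731, edgeR). For arrhythmic against night-restricted feeding 1 of the 13 was called lower, beside 5.16% of all genes.

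Among 21 tested regulators of Alas1 and Hmox1 (clock genes, nuclear receptors, stress factors), 14 passed for a rhythm under night-restricted, 11 under arrhythmic, 9 under incompletely adapted arrhythmic and 12 under ad libitum feeding, with median ranges of 1.23, 1.03, 0.72 and 0.90. Of all genes, 29.9%, 3.37%, 3.63% and 7.48% passed in this order. Dbp, a clock output factor, had a range of 5.44 ± 0.49 under night-restricted and 4.79 ± 0.47 under arrhythmic feeding (adjusted p = 8.09e-13 and 6.01e-10, edgeR). Nr1d2, one of the REV-ERB repressors, had 2.95 and 1.97. Foxo1, the fasting-active forkhead factor, and Hlf, a D-box factor, were the 2 of 21 that passed for a rhythm difference between arrhythmic and night-restricted feeding, beside 3.89% of all genes (adjusted p = 0.0122 and 0.0147). The Foxo1 peak was at ZT 8.8 under night-restricted and ZT 13.1 under arrhythmic feeding, with ranges of 0.80 and 1.07, and the Hlf range was 1.35 and 0.59. Esrra, the estrogen-related receptor alpha, had a range of 1.77 ± 0.33 (peak ZT 13.4) under night-restricted and 0.30 ± 0.33 under arrhythmic feeding (adjusted p of the difference 0.0909, edgeR). In mean level, 1 of the 21 was called lower for arrhythmic against night-restricted feeding, beside 5.16% of all genes. For incompletely adapted arrhythmic against night-restricted feeding 6 were, beside 11.2%, and 0 were called higher in either comparison.

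Among 20 tested heme-containing enzymes and their reductases, the users of the pathway's product, 11 passed for a rhythm under night-restricted, 2 under arrhythmic, 4 under incompletely adapted arrhythmic and 3 under ad libitum feeding, beside 29.9%, 3.37%, 3.63% and 7.48% of all genes. The median range of the list was 0.85, 0.49, 0.43 and 0.55 in this order. None passed for a rhythm difference between arrhythmic and night-restricted feeding, where 3.89% of all genes did. Cyp2e1, an ethanol- and ketone-metabolizing P450, had a range of 1.54 ± 0.22 under night-restricted feeding (peak ZT 12.5, adjusted p = 9.43e-07, edgeR) and 0.52 ± 0.22 under arrhythmic feeding (adjusted p = 0.409), with an adjusted p of 0.0671 for the difference. Cyp8b1, which shapes the bile acid pool, had 1.35 ± 0.32 and 0.83 ± 0.32, and its mean level differed by -0.73 under arrhythmic from night-restricted feeding (adjusted p = 0.00485). Cyp1a2, the caffeine-oxidizing P450, was also lower in mean level, with differences from night-restricted feeding of -0.46 (arrhythmic) and -0.59 (incompletely adapted arrhythmic) (adjusted p = 0.0317 and 0.00299). Mean levels in the list went both ways: 2 were called lower and 1 higher under arrhythmic, and 3 lower and 2 higher under incompletely adapted arrhythmic feeding. Of all genes, 5.16% and 11.2% were called lower. The shares called higher in these 2 comparisons were not computed, so the counts called higher have no background beside them. Cyb5r3, chosen after its values were seen, was higher in both (0.37 and 0.41, adjusted p = 0.0158 and 0.00399, edgeR).

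Markers of liver cell types were read beside these results. The 10 hepatocyte markers summed to 34800 to 56400 CPM over all libraries, and all were above 0 in every library. Of 12 erythroid markers, 5 (4 globin genes and Alas2) were tested, summing to 1170 to 6390 CPM; Slc4a1, Epb42, Rhag and Hemgn averaged under 0.1 CPM and were at 0 in 38 to 71 libraries. The summed erythroid level had a median of 2430 CPM under night-restricted, 2220 under arrhythmic, 1820 under incompletely adapted arrhythmic and 2790 under ad libitum feeding, and its part in the levels of the heme genes, which red cell precursors also express, was not tested.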

How the data were processed

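Raw counts per Ensembl gene, deposited by the authors for 72 libraries, were the values analysed. A second deposited table named TPM held CPM: it equalled CPM computed from the authors' counts to within 5.09e-11. The submitters' processing notes name the aligner STAR 2.4.2a and 2 genome builds, mm10 and GRCm38.p5, and no counting tool or strand setting. TRIzol extraction and the QuantSeq 3′ kit were used, per the labels.

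Identifiers were matched to GENCODE M21 without version suffixes, and 193 of 51912 had no symbol (0.00309% of counts). All 72 columns were used. The filter filterByExpr, run over the 24 groups, kept 12712 genes, which were scaled by TMM in edgeR 4.0.16 (R 4.3.3). One robust quasi-likelihood fit had a mean, a cosine and a sine at 24 h for each paradigm; single times were read from a fit of 24 group means. Tests passed at a Benjamini-Hochberg adjusted p of 0.05 over all genes tested. Standard errors of ranges came from the delta method. The labels do not state that replicates were separate animals, so p-values reflect the spread between these samples, which may be technical. The fits were also run on simulated counts, drawn independently with a common spread and no GC slope or ties between libraries. That run therefore does not cover those features of the real libraries. Alternatives were scaling, filter, tool (DESeq2 1.42.0), libraries entering the fit, time as a factor, replicate blocks, the GC slope, and leaving libraries out.

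The 8 members and all lists were chosen with earlier results of these data known, as were the 5 libraries of extreme GC slope. Named genes were the members, the nearest genes by correlation (5 for Alas1 and 3 for each other member) and, from each related list, up to 5 genes of smallest p for the rhythm difference between arrhythmic and night-restricted feeding. Further genes of these lists are named where the text says they were chosen after their values were seen. Some genes of the related lists and marker lists are not reported here by name.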

Additional observations from a re-analysis of the deposited data

Results flagged for a closer look

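The rhythm of Alas1 differed between night-restricted and arrhythmic feeding by a test of the difference itself (edgeR quasi-likelihood F test, adjusted p = 0.000688). The fitted range was 4.67 on the log2 scale under night-restricted and 0.95 under arrhythmic feeding. Over 12 alternative settings that kept every replicate number the adjusted p ran from 5.86e-06 to 0.00195. The highest value came from the setting without the 5 libraries of extreme GC slope. Over 72 settings that left out 1 library it ran from 0.000156 to 0.00287. Without replicate 2 in all groups, which leaves 2 libraries per group, the adjusted p was 0.0571.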

How the results depend on the processing

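Of the alternatives, 12 kept every replicate number, among them the fit without the 5 libraries of extreme GC slope. Among member calls, the Alas1 rhythm under night-restricted and ad libitum feeding passed in all 12 and without each of the 72 libraries. So did the Alas1 difference between arrhythmic and night-restricted feeding. The number of members called rhythmic under night-restricted feeding was 1 in place of 2 with the paradigm's own libraries and with the 6 times as a factor, and under ad libitum feeding 1 with times as a factor. Under arrhythmic feeding it was 1 (Fech) with a replicate block within each paradigm. Under incompletely adapted arrhythmic feeding it was 1 with no filter beyond 10 reads, 0 with its own libraries and 1 with time as a factor. For the rhythm difference between arrhythmic and night-restricted feeding 3 members (Alas1, Cpox and Urod) passed with the replicate block within each paradigm and 2 with DESeq2. For incompletely adapted arrhythmic against night-restricted, and for arrhythmic against ad libitum feeding, 1 (Alas1) in place of 0 passed with the block within each paradigm, the block with the GC slope, the GC slope alone and DESeq2. For the mean level of arrhythmic against night-restricted feeding 0 in place of 1 passed with the GC slope, the block with the GC slope, and the 5 libraries left out; for incompletely adapted arrhythmic against night-restricted feeding 0 passed with the 5 libraries left out and 3 with DESeq2. With the GC slope as a covariate 1 single-time contrast of arrhythmic against night-restricted feeding passed in place of 0. The cause of these changes was not tested.

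Over all groups, 338 of 828 pairs of same-numbered libraries had a correlation of deviations above 0.1, so the numbers were not taken to pair the libraries. Within paradigms such libraries went together more often: 34 of 45 pairs under night-restricted (mean r 0.299, against -0.139 for different numbers), 32 of 45 under ad libitum (0.198 against -0.101), 25 of 45 under arrhythmic (0.0799 against -0.039) and 33 of 45 under incompletely adapted arrhythmic feeding (0.243 against -0.121). With the block within each paradigm the adjusted p of the arrhythmic against night-restricted rhythm difference was 0.00341 for Cpox and 0.0353 for Urod. A replicate block shared by all paradigms left each count of members unchanged: 2, 2, 0 and 2 rhythmic members, 1 rhythm difference and 1 lower mean level for arrhythmic against night-restricted feeding.

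Leaving out single libraries or a replicate number (75 settings) gave 1 to 2 members rhythmic under night-restricted, 0 to 2 under ad libitum and 0 to 2 under incompletely adapted arrhythmic feeding. It gave 0 to 2 rhythm differences and 0 to 1 mean differences for arrhythmic against night-restricted feeding, 0 to 1 and 0 to 6 for incompletely adapted arrhythmic against night-restricted feeding, and 0 to 3 mean differences for incompletely adapted arrhythmic against ad libitum feeding. Leaving out a replicate number leaves 2 libraries per group. The Alas1 call was then lost under ad libitum feeding without replicate 2 (adjusted p = 0.0715) and under incompletely adapted arrhythmic feeding without replicate 1 or 3 (0.163 and 0.0555). The night-restricted Cpox call was lost without replicate 2 or 3 (0.1 and 0.0786). Both Hmox1 mean differences from night-restricted feeding were lost without replicate 1, at -0.33 for arrhythmic (0.458) and -0.53 for incompletely adapted arrhythmic feeding (0.203). Ppox was lost under ad libitum feeding without replicate 1 or 2 (0.375 and 0.44) and under incompletely adapted arrhythmic feeding without any number (0.151, 0.227 and 0.309). Counts of 5 to 36 limit Uros and 15 to 84 limit Ppox.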
